A study of Mus musculus with 6 samples.

Results

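The genes described here are the 8 transcription factors that mark successive steps of glutamatergic neuron formation in the embryonic cortex: Neurog1, Neurog2, Eomes, Insm1, Neurod1, Neurod2, Neurod6 and Tbr1. They were taken by gene symbol from the annotation of the array, where each has 1 probe, so that 8 of 15063 named genes, and 8 of 21766 probes, are described. All 8 had enough values to enter the tests, among 17476 tested probes. The arrays compared cortices of mouse embryos at stage E12.5 in which Mest (Peg1) was disrupted with wild-type cortices. Mest is imprinted and expressed from the paternal copy, and mutants inherited from the father a LacZ-targeted allele without exons 3 to 8, while the maternal copy was wild type. The deletion was not restricted to the cortex. The sources used here give neither strain nor sex of the embryos. On each of 6 two-colour arrays 1 mutant cortex was hybridised with 1 wild-type cortex. The mutant carried Cy5 on the arrays of mutants 3, 5 and 6 and Cy3 on those of mutants 1, 4 and 7. The design names wild types 2, 8 and 9, each taken as used once per dye, although the label of the array of mutant 3 gives number 1, which was read as wild type 2.

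During cortical neurogenesis the proneural basic helix-loop-helix (bHLH) factors Neurog1 and Neurog2 are switched on in dividing radial glia and commit them to the neuronal fate. Eomes (Tbr2) and the zinc finger factor Insm1 follow in basal progenitors, and bHLH factors of the Neurod family and the T-box factor Tbr1 follow in young glutamatergic neurons. At this stage the first cortical neurons, those of the preplate and deep layers, are being born, so that progenitors and young neurons are both in the tissue. In bulk cortex fewer cells of a type and less RNA per cell cannot be told apart.

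bHLH factors bind E-boxes, written CANNTG, and the forms CAGATG and CATATG are those usually tied to the Neurog and Neurod factors. Of the 3 Neurod genes, Neurod1 and Neurod6 were both highest on the arrays of wild type 8 while Neurod2 was apart by dye, as described further on. A link between promoter sequence and these ratios was not tested. The 250 bases before the starts of the 3 genes are shown with every E-box in capitals (RefSeq, build GRCm38.p6, minus strand for all 3, at chr2:79456637-79456886, chr11:98329646-98329895 and chr6:55681264-55681513).
Neurod1: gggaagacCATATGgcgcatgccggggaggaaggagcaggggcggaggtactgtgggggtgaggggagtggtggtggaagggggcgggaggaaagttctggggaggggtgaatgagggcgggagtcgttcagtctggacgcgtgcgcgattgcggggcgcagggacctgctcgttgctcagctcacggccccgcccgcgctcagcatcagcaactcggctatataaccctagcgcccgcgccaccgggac
Neurod2: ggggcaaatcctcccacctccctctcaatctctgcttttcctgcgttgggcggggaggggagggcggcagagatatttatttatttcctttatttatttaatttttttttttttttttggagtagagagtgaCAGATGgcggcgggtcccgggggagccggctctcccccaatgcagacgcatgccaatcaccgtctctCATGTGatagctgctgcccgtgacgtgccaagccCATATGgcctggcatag
Neurod6: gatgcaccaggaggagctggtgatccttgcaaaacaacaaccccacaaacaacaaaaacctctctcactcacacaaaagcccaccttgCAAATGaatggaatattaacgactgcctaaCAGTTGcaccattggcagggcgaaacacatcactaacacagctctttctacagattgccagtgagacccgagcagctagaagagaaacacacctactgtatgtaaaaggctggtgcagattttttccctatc

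Neurod2 had 3 E-boxes in this window, Neurod6 had 2 and Neurod1 had 1. CATATG began 242 bases before the start of Neurod1 and 17 bases before that of Neurod2, and CAGATG began 118 bases before that of Neurod2. Of 32851 promoters of the same length in the table, 66.2% held an E-box of any form, 3.46% held CATATG and 14.4% held CAGATG on either strand. Tbr1 had 1 E-box, CAGGTG, and the windows of Neurog1, Neurog2 and Eomes had none. The windows of Tbr1 (61804203 to 61804452) and Neurog2 (127632886 to 127633135), on the plus strand, lie within the gene coordinates given further on. For Tbr1 and Neurog2 they are thus not upstream of the first base of those coordinates. The T-box half-site GGTGTGA, searched on both strands, was in 3.33% of promoters and in none of the 7 members' windows in the table, which were those of all members except Insm1. These matches describe letters in a window and carry no measurement of binding.

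The values given per array are log2 ratios (mutant over wild type) after the median of that array was subtracted. A value of 1 is a doubling in the mutant relative to the other probes of the array. The deposited ratios have no stated direction, which was read from the targeted gene Mest. Its probe gave -1.36, -1.78 and -1.39 for mutants 3, 5 and 6 and -1.50, -2.07 and -1.44 for mutants 1, 4 and 7, so that its deposited sign followed the dye on every array. Its fitted ratio was -1.59 (SE 0.13, limma, adjusted p = 0.60, lower on 6 of 6 arrays), which is part of that reading and no test of it. Per array, 16422 to 19564 of the 21766 probes carried a value. No signal intensity was used here, so that neither the level of a gene nor its presence in the tissue can be stated, only its ratio. The number of arrays limits the precision.

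None of the 8 factors passed the test for a difference between mutant and wild-type cortex, and no probe of the array did (0% of 17476 at a limma adjusted p under 0.05). The unadjusted p lay under 0.05 for 687 probes, 3.93% of those tested (1.6% higher and 2.33% lower in mutants), and for 0 of the 8 members. The fitted ratios of the members lay between -0.13 for Tbr1 and 0.26 for Neurog1, with 3 above and 5 below 0. Their median was -0.0071, beside 0.0069 for all tested probes, and the median size of their ratios was 0.046, beside 0.14. None of the 8 had the same sign on every array, as 5.57% of tested probes did. The signs are relative to the array median: with arrays not centred, quantile normalized, or centred on the Gapdh control spots, all 8 ratios lay above 0, as did the median of all probes, at 0.26, 0.256 and 0.265.

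**Figure D1:**
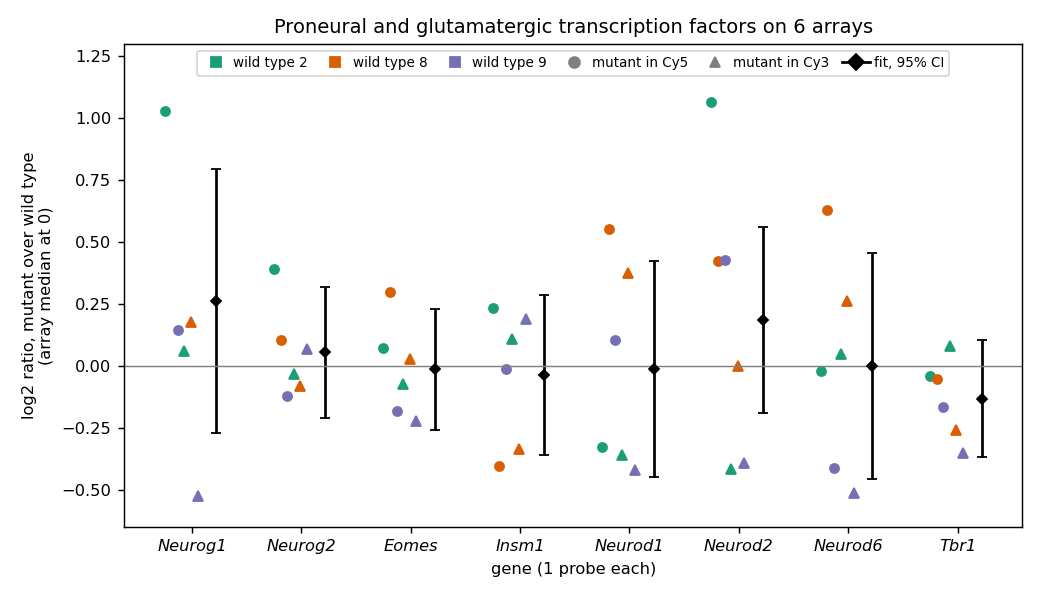
Log2 ratio of mutant over wild type (vertical axis, array median at 0) for the 8 genes (horizontal axis), with 1 point per array, coloured by wild-type cortex and shaped by the dye of the mutant; black diamonds are the fitted ratios with 95% confidence intervals. Every interval includes 0, the narrowest is that of Tbr1 (-0.37 to 0.10) and the widest that of Neurog1 (-0.27 to 0.80).

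The proneural pair stood at the entry to the sequence. Neurog1, which lies on chromosome 13 (56250478 to 56252180, GRCm38.p6), gave 1.03 and 0.15 in mutants 3 and 6 and 0.061, 0.18 and -0.53 in mutants 1, 4 and 7, with no value on the array of mutant 5. Mutant 3 was high and mutant 7 low, and the other 3 arrays lay close to 0. The fitted ratio was 0.26 (SE 0.20, 5 arrays), a level 1.20-fold that of wild type with a 95% confidence interval from 0.830-fold to 1.74-fold (limma, adjusted p = 0.90, above 0 on 4 of 5 arrays). Without mutant 3, which left 1 array in Cy5 and so no test, the mean of the orientation means was 0.025 and the mean of the 4 arrays -0.036.

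Neurog2 (chromosome 3, 127632733 to 127635636), the main proneural factor of the dorsal telencephalon, varied much less. It gave 0.39, 0.11 and -0.12 in mutants 3, 5 and 6 and -0.031, -0.082 and 0.067 in mutants 1, 4 and 7. As for Neurog1, the highest value was that of mutant 3, and the dye orientations overlapped. The SD over arrays was 0.19 for Neurog2 (n = 6) and 0.56 for Neurog1 (n = 5), beside a median of 0.41 over all tested probes. The fitted level of Neurog2 was 1.04-fold (0.865 to 1.25) that of wild type (limma, adjusted p = 0.93, above 0 on 3 of 6 arrays).

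Of the factors of basal progenitors, Eomes (chromosome 9, 118478186 to 118486132), a T-box factor required for the generation of this cell type, gave 0.071, 0.30 and -0.18 in mutants 3, 5 and 6 and -0.073, 0.029 and -0.22 in mutants 1, 4 and 7. Its 2 lowest values came from the arrays of wild type 9 and its highest from an array of wild type 8. Its fitted level was 0.991-fold (0.837 to 1.17) that of wild type (limma, adjusted p = 0.98, above 0 on 3 of 6 arrays). This interval holds only with each array's median set at 0. In log2 its upper end was 0.23, and the fitted ratio was 0.24 with arrays not centred and 0.25 with Gapdh centring.

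Insm1 (chromosome 2, 146221997 to 146225020), a zinc finger repressor that promotes the formation of basal progenitors, gave 0.23, -0.41 and -0.011 in mutants 3, 5 and 6 and 0.11, -0.335 and 0.19 in mutants 1, 4 and 7. Both arrays of wild type 8, those of mutants 5 and 4, were lower than the other 4. The fitted level was 0.975-fold (0.779 to 1.22) that of wild type (limma, adjusted p = 0.96, below 0 on 3 of 6 arrays).

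Among the factors of differentiating neurons, Neurod1 (chromosome 2, 79452637 to 79456636), which acts at the passage from basal progenitor to neuron, gave -0.33, 0.55 and 0.10 in mutants 3, 5 and 6 and -0.36, 0.38 and -0.42 in mutants 1, 4 and 7. The 2 highest values were those of mutants 5 and 4, which share wild type 8, the reverse of Insm1. The sign of Neurod1 was opposite to that of Insm1 on all 6 arrays, the only pair of members with this pattern among 28, noticed after the values were seen. Its fitted level was 0.991-fold (0.732 to 1.34) that of wild type (limma, adjusted p = 0.99, above 0 on 3 of 6 arrays).

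Neurod2 (chromosome 11, 98325415 to 98329645), a bHLH factor of postmitotic glutamatergic neurons, gave 1.065, 0.42 and 0.43 with the mutant in Cy5 (mutants 3, 5 and 6) and -0.42, 0 and -0.39 with the mutant in Cy3 (mutants 1, 4 and 7). All 3 values of the first orientation lay above all 3 of the second. Its fitted level was 1.14-fold (0.876 to 1.47) that of wild type (limma, adjusted p = 0.90, above 0 on 3 of 6 arrays).

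Neurod6 (chromosome 6, 55677818 to 55681263), also called Math2 or Nex, marks young cortical pyramidal neurons and lies on the same chromosome as Mest (30733506 to 30748466). It gave -0.021, 0.63 and -0.41 in mutants 3, 5 and 6 and 0.049, 0.26 and -0.515 in mutants 1, 4 and 7. The arrays of wild type 8 were the highest, those of wild type 2 lay near 0 and those of wild type 9 were the lowest. These values cancelled in the mean, and the fitted level was 0.999-fold (0.728 to 1.37) that of wild type (limma, adjusted p = 0.999, above 0 on 3 of 6 arrays).

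Tbr1 (chromosome 2, 61802863 to 61814114), the T-box factor of preplate and layer 6 neurons, gave -0.042, -0.0515 and -0.17 in mutants 3, 5 and 6 and 0.082, -0.26 and -0.35 in mutants 1, 4 and 7. It was below 0 in every mutant except mutant 1, and it had the lowest spread of the members (SD 0.16, n = 6). Its fitted ratio of -0.13 (SE 0.094) corresponds to a level 0.912-fold (0.774 to 1.08) that of wild type (limma, adjusted p = 0.90). Tbr1 had the smallest unadjusted p of the 8, at 0.22 (limma), and ranked 4038 of 17476 probes by p. Over the arrays of 1 orientation the mean of Tbr1 was -0.087 with the mutant in Cy5 and -0.18 with the mutant in Cy3.

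In order of the fitted ratio, the members ran from Neurog1 over Neurod2, Neurog2, Neurod6, Neurod1, Eomes and Insm1 down to Tbr1. The intervals of all 8 overlapped, and differences between members were not tested. By role, the mean of Neurog1 and Neurog2 was 0.71 in mutant 3, between 0.012 and 0.048 in mutants 1, 4 and 6, and -0.23 in mutant 7, while mutant 5 had a value for Neurog2 alone. The mean of Eomes and Insm1 stayed between -0.15 and 0.15 on all arrays, but these genes had the same sign on only 2 of 6. In mutant 5 Eomes lay at 0.30 and Insm1 at -0.41. The mean of the 3 Neurod genes was 0.24, 0.54 and 0.039 in mutants 3, 5 and 6 and -0.24, 0.21 and -0.44 in mutants 1, 4 and 7. On the array of mutant 7, 6 of the 8 members lay below 0 and their median was -0.37. The array of mutant 5 had the highest median, 0.30, with 5 of 7 measured members above 0.

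Neurod2 was the member whose ratios were apart by the dye on the mutant. No mutant was labelled in both dyes, so that for a single gene the dye cannot be told apart from the embryos that carried it. The dye term of the fit is positive where the ratio is higher with the mutant in Cy5. For members with values on all 6 arrays it is 0.5 times the difference between orientations. It was 0.45 (SE 0.12) for Neurod2 and 0.36 (SE 0.16) for Neurog1, which had a missing value. For the other 6 members it lay between -0.024 and 0.12. For Neurod2 the term had an unadjusted p of 0.0098 and an adjusted p of 0.16 (limma), and for Neurog1 an adjusted p of 0.30. No member passed the adjusted threshold for the dye term, as 0.269% of tested probes did. At the unadjusted threshold 1 of 8 members had a dye term, against 20% of tested probes, and 1 of 8 had orientations that did not overlap, against 29.8%. The dye term was above 0 for 7 of 8 members and for 53.9% of all tested probes. In each orientation alone Neurod2 averaged 0.64 (Cy5) and -0.27 (Cy3), and Neurog1 0.59 and -0.096, so that the positive fitted ratios of both came from the Cy5 orientation, for Neurog1 from the array of mutant 3.

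**Figure D2:**
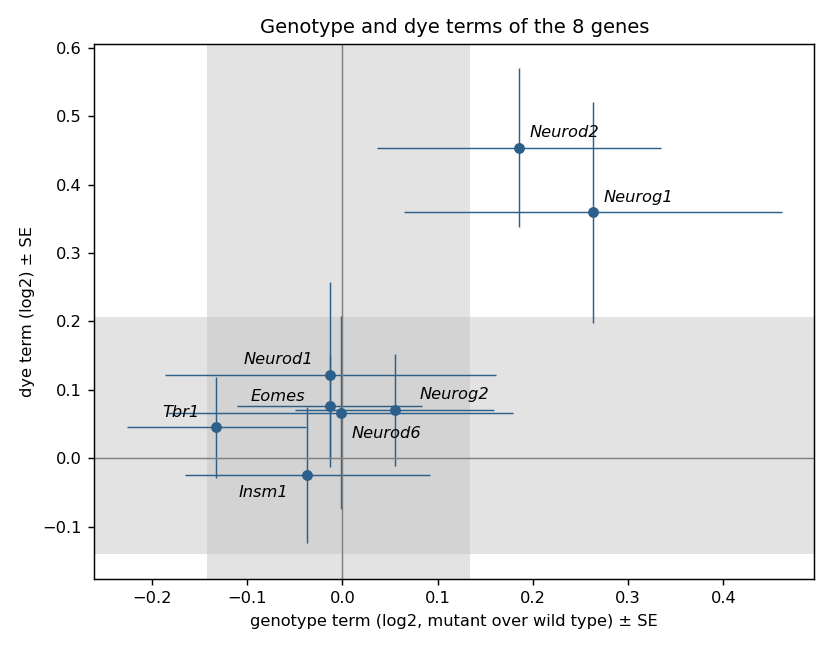
Fitted genotype term (horizontal axis, log2 of mutant over wild type) against the dye term (vertical axis, log2) of the 8 genes, with standard errors as bars; grey bands run from the 25th to the 75th percentile of all tested probes for each term. Neurod2 and Neurog1 lie above the band of the dye term (0.45 and 0.36), and the other 6 lie inside it.

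The wild-type cortex on the array went with the ratios of other members. Averaged over the pair of arrays that share a wild type, Neurod6 lay at 0.014 for wild type 2, 0.45 for wild type 8 and -0.46 for wild type 9. Neurod1 lay at -0.345, 0.47 and -0.16, and Insm1 at 0.17, -0.37 and 0.090 in the same order. Eomes lay at -0.001, 0.16 and -0.20. For Neurod6 the ranges of the pairs did not overlap between any of the 3 wild types. For Neurod1 and Insm1 the pair of wild type 8 stood apart from the other arrays. Mest did so too, at -1.78 and -2.07 in mutants 5 and 4 and from -1.50 to -1.36 in the others. The share of all tested probes with such a separation was not counted, so it cannot be called particular to these members. The SD over arrays was 0.43 for Neurod6, 0.42 for Neurod1 and 0.27 for Insm1, beside a median of 0.41 over all tested probes. The means of the pairs spanned 0.91 for Neurod6, 0.81 for Neurod1 and 0.54 for Insm1. This span was not computed for all probes and is not comparable in size with a genotype ratio fitted over all arrays.

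Since the pattern by wild type was noticed in the values, the following test describes the same data and is not independent of them. With the wild type as a fixed factor and values required on all 6 arrays, 7 members could be fitted (all except Neurog1). The F test for differences between wild types gave unadjusted p-values of 0.023 for Neurod6, 0.035 for Neurod1 and 0.064 for Insm1 (limma), each with an adjusted p of 0.59. Of 13531 probes, 8.27% had an unadjusted p under 0.05 in this test and 0% passed after adjustment, against 2 of 7 and 0 of 7 members. A ratio shared by the arrays of a wild type may come from that cortex or from both mutants set against it, which cannot be told apart here.

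**Figure D3:**
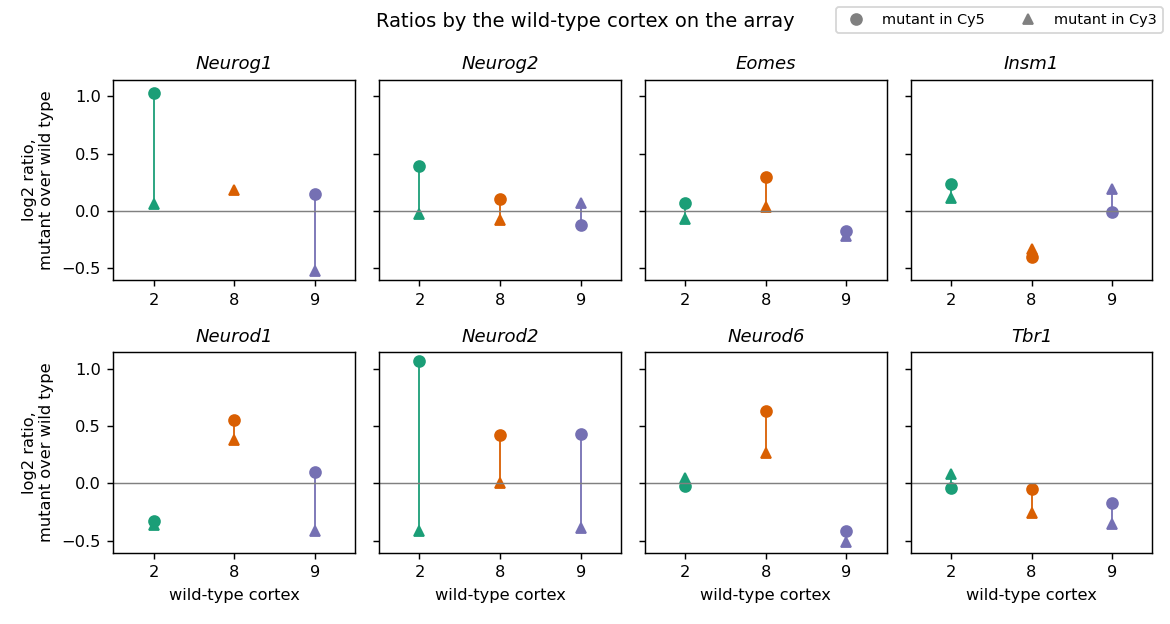
Log2 ratio of mutant over wild type (vertical axis) by the wild-type cortex on the array (horizontal axis, wild types 2, 8 and 9), 1 panel per gene, with circles for the mutant in Cy5, triangles for the mutant in Cy3 and a line joining arrays that share a wild type. Neurod1 and Neurod6 are highest and Insm1 lowest on both arrays of wild type 8, while for Neurod2 the circles lie above the triangles for every wild type.

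The ratios of each member with 6 values were set beside those of 10955 probes with 1 gene symbol and values on all 6 arrays. Other members were a very small part of these candidates, so that their absence among the closest probes says nothing about the members. Named here are the 2 closest probes by the root mean square difference. For Neurod6 they were Snap25, a protein of synaptic vesicle fusion, at 0.13 and the ephrin receptor gene Epha5 at 0.14, beside a median of 0.49 over all candidates. Snap25 had -0.031, 0.75 and -0.21 in mutants 3, 5 and 6 and -0.048, 0.165 and -0.34 in mutants 1, 4 and 7. For Neurod1 they were Zfp157 (0.053) and Dph3 (0.077), for Neurod2 Glt6d1 (0.19) and Fjx1 (0.20), and for Insm1 Ndufa10 (0.056) and Adar (0.060). Neurog2 came closest to Nuak2 (0.061) and Cbfb (0.071), Eomes to Ikbkb (0.076) and Slc26a6 (0.084), and Tbr1 to Calm4 (0.062) and Dbi (0.071). Among the members themselves the closest pair was Neurog2 and Eomes (0.20), and Neurod1 and Neurod6 differed by 0.305.

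The other genes of the same pathway gave no call either. Of 6 lists with 132 probes of 115 tested genes, 69 probes lay above 0, 0 passed the adjusted threshold in either direction and 1 had an unadjusted p under 0.05 (limma), beside 3.93% of all probes. The genes named are the 3 with the smallest p of each list. Partners and relatives of the proneural bHLH factors (15 of 19 genes tested) had a median of -0.048, with the E protein genes Tcf4 and Tcf12, whose products pair with proneural factors, at -0.15 and 0.17 and the inhibitor gene Id3 at -0.11. Notch signalling and Hes genes, which hold proneural genes in check in progenitors (22 of 23 tested), had a median of 0.076. Of these Hey1 lay at -0.175, Notch1 at 0.11 and Lfng at 0.56, the last at 2.57 and 2.98 in mutants 3 and 6 and at -0.74, -2.49 and -1.38 in mutants 1, 4 and 7. Genes downstream of Neurog2 or of basal progenitors (16 of 21 genes, 18 probes) had a median of -0.020, with the antiproliferative gene Btg2 at 0.28, Tox at 0.775 and the cell cycle inhibitor gene Cdkn1b at -0.85, the last on 4 arrays with opposite signs in the 2 orientations. Tox lay at 3.17 in mutant 5 and between -0.028 and 0.81 on the other arrays.

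On either side of the sequence, radial glia and cortical progenitor genes (18 of 21 genes, 22 probes) had a median of 0.035. Hmga2, a chromatin protein of early progenitors, lay at 0.36 with an unadjusted p of 0.0498 (limma, adjusted p = 0.90, above 0 on 5 of 6 arrays), and Slc1a3 and Fabp7 lay at 0.23 and -0.20. Factors of deep-layer and later glutamatergic neurons (24 of 29 genes, 33 probes) had a median of 0.019, with Nfia at 0.30, Zbtb18 at -0.18 and Foxp2 at 0.36. Pan-neuronal genes (20 of 22 genes, 22 probes) had a median of -0.015, with Chga at 0.16, Ncam1 at 0.22 and Map2, a microtubule protein of dendrites, at -0.19 and below 0 on 6 of 6 arrays. Foxp2, like Neurod6, was highest on the arrays of wild type 8 (0.96 in mutants 5 and 4). It was lowest on those of wild type 9 (-0.13 and -0.46 in mutants 6 and 7), as was seen after these genes were named. Nfia and Zbtb18, named from the same list, did not have this order, and the share of all probes with it was not counted.

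**Figure D4:**
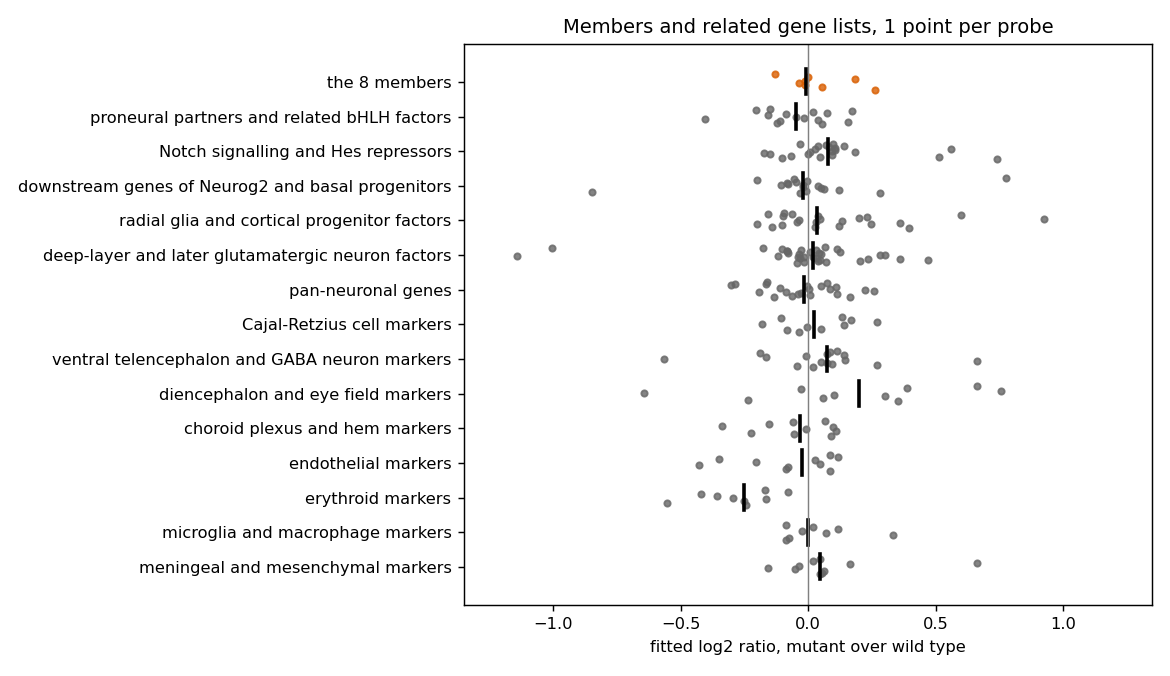
Fitted log2 ratio of mutant over wild type (horizontal axis) of each tested probe of the 8 members and of 14 gene lists (vertical axis), with a black bar at the median of each. The members lie between -0.13 and 0.26, and the list medians lie between -0.25 for erythroid genes and 0.20 for diencephalon and eye field genes.

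Marker lists of other cells and neighbouring tissues (83 probes of 77 genes) held 0 probes past the adjusted threshold and 6 with an unadjusted p under 0.05 (limma), beside 3.93% of all probes. Of these 6, 4 were erythroid probes, all lower in mutants, and 2 were the probes of Tcf7l2, both higher. Erythroid markers lay below 0 for 9 of 9 probes, with a median of -0.25 and array means from -0.63 to -0.10, and Hbb-bh1, Hbb-y and Alas2 at -0.36, -0.42 and -0.245. Ventral telencephalon and GABA neuron markers, which mark cells outside the glutamatergic sequence, had array means from 0.19 to 0.29 with the mutant in Cy5 and from -0.30 to -0.076 in Cy3. For 5 of the 14 lists every array mean in Cy5 exceeded every one in Cy3, namely this one and those of diencephalon and eye field, endothelial, Notch and Neurog2 downstream genes. In this order, orientations did not overlap for 43.75%, 30%, 20%, 27.3% and 11.1% of their probes, beside 29.8% of all tested probes. These are plain means, which single probes can move. The largest dye terms in these lists were 2.07 (Gad1), 1.21 (Rax), 0.76 (Plvap), 2.10 (Lfng) and 2.68 (Cdkn1b), so that the means need not describe most probes of a list. The part of these genes' tissues in the Neurod2 ratios was not tested. Of the ventral telencephalon and GABA neuron markers, Dlx5, Isl1 and Gsx1 lay at 0.27, -0.17 and 0.14. Diencephalon and eye field markers, with a median of 0.20, had array means from 0.255 to 1.145 in Cy5 and from -0.33 to 0.020 in Cy3, with Tcf7l2, Irx1 and Pax2 at 0.39, -0.24 and -0.64. Pax2 had values on 4 arrays, above 0 in Cy5 and below 0 in Cy3. Cajal-Retzius markers had a median of 0.022 (Reln -0.11, Trp73 0.13, Calb2 -0.084), and the other probe of Reln lay at 0.17. Choroid plexus and hem markers had a median of -0.033 (Ttr -0.34, Rspo1 0.096, Aqp1 0.088). Endothelial markers lay above 0 for 5 and below 0 for 5 of 10 probes, with a median of -0.026 (Esam -0.43, Kdr -0.21, Plvap -0.35), microglia and macrophage markers -0.0013 (Tyrobp -0.089, Aif1 -0.087, C1qc 0.071) and meningeal and mesenchymal markers 0.047 (Pdgfra 0.66, Col3a1 0.060, Col1a2 0.056). Pdgfra had 2.44 and 0.68 in mutants 5 and 6 and 0.20, -0.91 and -0.20 in mutants 1, 4 and 7.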

How the data were processed

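The deposited values are 1 log2 ratio per probe and array. Their scale and direction are not stated and were read from their range and from Mest. For scanner, background treatment and normalization the steps taken by the authors were not given in the sources used here. A ceiling value of 16.61 (588 values) was set to missing, and 232 control spots were left out. Ratios were turned to mutant over wild type and centred on each array's median. Probes with values on at least 4 arrays, 2 per orientation, entered lmFit and eBayes of limma 3.58.1 under R 4.3.3 (genotype intercept, dye term, wild type as a random block with correlation 0.25), with Benjamini-Hochberg adjustment over all 17476 probes. The fit was tested on simulated data. Symbols came from the platform's annotation, where 16184 of 17003 probes matched a gene of GRCm38.p6 by Entrez identifier. A gene with several probes is named by that with the smallest p. The genes named are all members, Mest, up to 3 genes per list with the smallest p, and for each member with 6 values the 2 probes with the nearest ratios. Members, lists and tests were chosen with earlier results of these data known. The arrays are of separate embryos, but each wild type serves 2 arrays. Intensity could not be used, so ratios of dim or saturated spots were not set apart.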

Additional observations from a re-analysis of the deposited data

How the results depend on the processing

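In none of 23 other settings did a member, a probe of the lists or any other probe pass the adjusted threshold for genotype, and no member passed for the dye term where it was fitted. Mest stayed below 0 in all of them, and the adjusted p of the members ranged from 0.15 to 0.9997 (limma). The median of the members was 0.245 with arrays not centred, 0.23 with quantile normalization and 0.25 with arrays centred on Gapdh control spots (this and the fixed wild-type factor were added after seeing the data), since these settings moved the median of all probes from 0.0069 to 0.26. In the same 3 settings Eomes lay at 0.24, 0.22 and 0.25, Neurod1 at 0.24, 0.24 and 0.25, Neurod6 at 0.25, 0.21 and 0.26, Tbr1 at 0.12, 0.12 and 0.13, and Insm1 at 0.22, 0.22 and 0.22. With quantile normalization Neurog1, Neurog2 and Neurod2 had an unadjusted p under 0.05, as 29.3% of all probes did. With the mutant in Cy5 only, Eomes, Neurod1 and Neurod6 lay at 0.063, 0.11 and 0.065 and Neurod2 had an unadjusted p under 0.05, as 8.16% of all probes did, and in Cy3 only Neurog1, Neurog2 and Neurod2 at -0.096, -0.015 and -0.27. Without both arrays of wild type 2, Neurog2 and Neurod1 lay at -0.0076 and 0.15, without those of wild type 8 Insm1 lay at 0.13, and without those of wild type 9 Eomes, Neurod1 and Neurod6 lay at 0.081, 0.060 and 0.23. With wild type 1 as a cortex of its own Neurod6 lay at 0.00019. The cause of these changes of sign was not tested. Leaving out 1 mutant at a time gave ranges of 0.18 to 0.32 for Neurog1 (without mutants 1, 4, 5 or 7), -0.013 to 0.13 for Neurog2, -0.072 to 0.032 for Eomes, -0.10 to 0.049 for Insm1, -0.14 to 0.079 for Neurod1, 0.067 to 0.26 for Neurod2, -0.14 to 0.064 for Neurod6 and -0.19 to -0.097 for Tbr1. Neurog1 could not be tested without mutant 3 or 6, where the mean of its orientation means was 0.025 or 0.47. Without both arrays of a wild type the block correlation could not be estimated, and that of all arrays was used. Each ratio already pairs a mutant with a wild type on 1 array, and no replicate number is shared between groups, so no further pairing by number was fitted.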

Other observations

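The correlation between arrays that share a wild-type cortex, estimated over all tested probes, was 0.25. It was 0.0015 without the array of mutant 5 and 0.023 without that of mutant 4, which share wild type 8. Without mutant 1, 3, 6 or 7 it was 0.35, 0.31, 0.48 or 0.44. With wild type 1 as a cortex of its own, and so 1 pair fewer, it was 0.385. It was -0.079 without the dye term, 0.677 with arrays not centred and 0.13 with Gapdh centring. Neurod1, Neurod6 and Insm1 were the members whose ratios on both arrays of wild type 8 stood apart from those on the other arrays. Mest did so too, and the share of all tested probes that do so was not counted. The F test between wild types gave an adjusted p of 0.59 for Neurod1, Neurod6 and Insm1 (limma).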
